A study of Homo sapiens with 4 samples.

Results

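10 genes of innate immune sensing are described here: the Toll-like receptor genes TLR1 to TLR8, the co-receptor gene CD14 and the adaptor gene MYD88, chosen by name and not by their values. They are 10 of the 35585 genes named in the files, and all 10 passed the filter on low counts that left 15378 genes for testing. RNA was measured in iMGL, microglia-like cells differentiated from the established human iPSC line WTC11 (induced pluripotent stem cells). WT cells (genotype WT, 2 libraries) were set against S1KO cells (genotype KO, 2 libraries), which were edited to lack SHIP1, the lipid phosphatase encoded by INPP5D. Neither group carries a treatment in the labels. The design text gives 2 clones per genotype and the labels do not tie a library to a clone, so p-values measure only the spread between these libraries.

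Toll-like receptors are membrane proteins whose leucine-rich ectodomains bind microbial molecules and whose cytoplasmic TIR domains recruit adaptors. TLR2, paired with TLR1 or TLR6, binds bacterial lipopeptides, TLR4 with LY96 (MD-2) and CD14 binds lipopolysaccharide, TLR5 binds flagellin, and TLR3, TLR7 and TLR8 sense RNA inside endosomes. MYD88 carries the signal of all of these receptors except TLR3, which uses TICAM1 (TRIF), as TLR4 also does, and the chain ends in NF-kB and interferon regulatory factors. Microglia, the macrophages of the brain, are known to respond through these receptors to infection and to tissue damage.

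Sequence limits how well some of these genes can be measured, and the stretches that matter are shown first. TLR1 and TLR6 lie on the same strand of chromosome 4. The annotated span of TLR1 (chr4:38790677-38856817) contains that of TLR6 (chr4:38823715-38856817), because the transcript TLR1-205 reaches to the start of TLR6. Their coding sequences are nearly alike in places. The longest stretch that TLR1-201 and TLR6-202 share without a mismatch is 218 nt, and 418 of the 3552 31-base words of the coding transcripts of TLR1 (11.8%) also occur in TLR6, where they make up 6.90% of its words. The words were counted over whole transcripts, so they can include exon sequence from the overlap of the 2 genes. Reads within such stretches cannot be placed, so the division of counts between TLR1 and TLR6 is uncertain to that extent. The 60 coding bases at the edge of the shared stretch are printed from the GENCODE 29 transcripts, with the single base that differs in capitals (GRCh38, minus strand, TLR1 at chr4:38797196-38797255 and TLR6 at chr4:38827823-38827882).
TLR1: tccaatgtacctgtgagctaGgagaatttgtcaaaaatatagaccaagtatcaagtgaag
TLR6: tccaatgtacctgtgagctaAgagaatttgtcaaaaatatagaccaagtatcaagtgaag
No 31-base word was shared by TLR7 and TLR8.

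Most MYD88 counts were assigned to transcripts that keep an intron, and the exon-intron boundaries that set those transcripts apart are shown for that reason. MYD88-202 keeps intron 3 of the 4 introns of MYD88-201, and MYD88-210 keeps introns 2 and 3. No coding transcript of the gene keeps either. The last exon bases are in lower case and the first intron bases in capitals (GRCh38, plus strand, intron 2 boundary at chr3:38139969-38140028 and intron 3 boundary at chr3:38140539-38140598).
MYD88 intron 2: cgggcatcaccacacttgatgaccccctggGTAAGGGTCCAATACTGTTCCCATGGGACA
MYD88 intron 3: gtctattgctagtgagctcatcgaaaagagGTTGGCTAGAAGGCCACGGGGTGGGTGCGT
Intron 2 is 389 nt long and intron 3 is 188 nt long. Of the 31-base words of the retained-intron transcripts 28.3% do not occur in the coding transcripts. Of the words of the coding transcripts 8.50% occur in no retained-intron or processed transcript of the gene. Few positions can therefore place a read in a coding transcript only.

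The libraries held 21516813 to 25927881 estimated counts. The mitochondrial share of counts was 14.2% and 18.9% for WT against 52.3% and 39.2% for S1KO, so nuclear genes had fewer counts in S1KO. INPP5D, the targeted gene, stood at 356 CPM in WT 1, 441 in WT 2, 81.0 in S1KO 1 and 97.6 in S1KO 2 (CPM are counts scaled by TMM to a common library size). It fell by 2.16 on the log2 scale (SE 0.21, edgeR adjusted p = 0.0184), and the labels and the targeted gene go the same way. The call was lost without S1KO 1 (-2.04, adjusted p = 0.686) and without S1KO 2 (-2.31, adjusted p = 0.312). Myeloid transcripts, among them SPI1, AIF1 and TYROBP, were present in all 4 libraries, which does not by itself tell microglia from other myeloid cells. Summed mesenchymal markers were 900 TPM (a level per transcript length) in WT 1 and 3.70 to 6.91 TPM in the other libraries, so WT 1 stands apart there.

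In wild-type cells TLR2 was the most abundant of the 10 genes per transcript length. Its level was 107 ± 24.0 TPM (SD, n = 2), followed by CD14 at 55.9 ± 7.45, TLR1 at 29.3 ± 0.121, TLR7 at 21.6 ± 3.48, MYD88 at 12.3 ± 5.01 and TLR6 at 9.87 ± 3.65. The lower levels were TLR4 at 3.73 ± 0.19 TPM, TLR8 at 2.52 ± 0.461, TLR5 at 2.28 ± 1.51 and TLR3 at 0.621 ± 0.19. Among neighbours in this order MYD88 and TLR6 overlapped between the WT libraries, and so did TLR8 and TLR5. The place of TLR1 rests on a short non-coding transcript, TLR1-209 (652 nt), which took 16.0 TPM in WT 1 and 13.9 in WT 2. Counting protein-coding transcripts alone, TLR1 stood at 12.4 TPM and MYD88 at 1.65 TPM in WT.

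In S1KO cells TLR2 again had the highest mean, 25.3 ± 11.4 TPM, then CD14 at 19.6 ± 4.67, TLR1 at 10.6 ± 0.973 and TLR7 at 9.58 ± 4.29. TLR4 came next at 3.97 ± 0.531 TPM, above TLR6 at 3.23 ± 0.718, MYD88 at 1.53 ± 0.212, TLR5 at 1.46 ± 0.078, TLR8 at 0.733 ± 0.204 and TLR3 at 0.294 ± 0.06. In S1KO 4 pairs of neighbours overlapped: TLR2 with CD14, TLR1 with TLR7, TLR4 with TLR6, and MYD88 with TLR5. TPM divides by a total that includes mitochondrial transcripts, which took 24.6% and 30.3% of TPM in WT and 66.9% and 54.7% in S1KO. Levels between the genotypes are therefore compared below in TMM-scaled CPM, and the TPM serve to compare genes within a library.

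**Figure D1:**
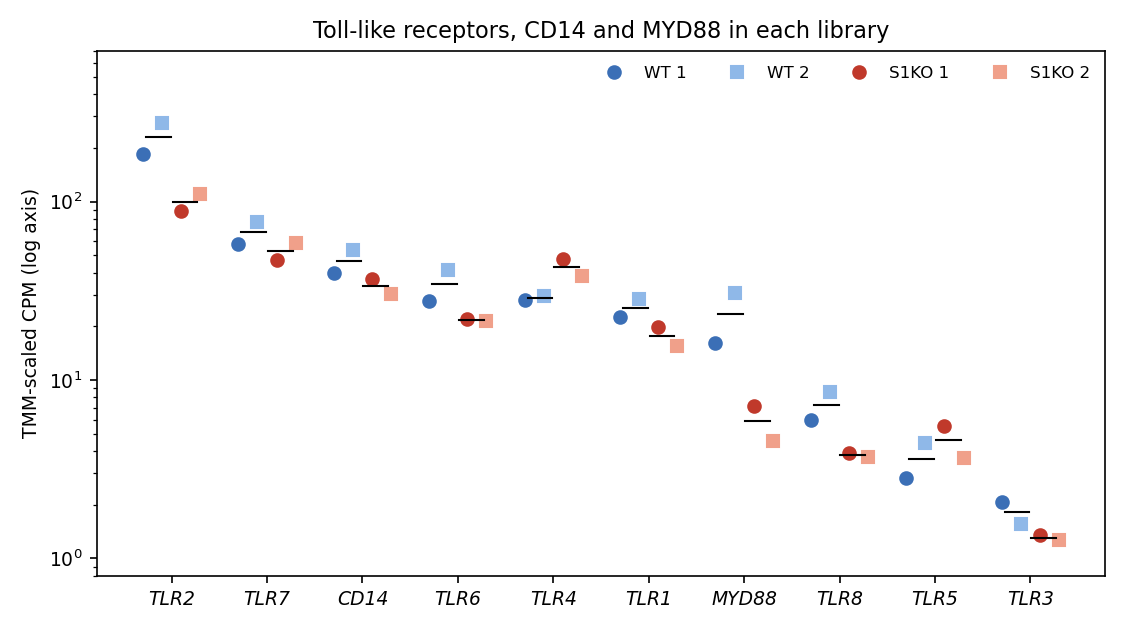
TMM-scaled CPM (log axis) of each of the 10 genes in WT 1, WT 2, S1KO 1 and S1KO 2, 1 point per library, with short lines at the group means. Both S1KO points lie below both WT points for 7 genes, above them for TLR4, and among them for TLR5 and TLR7.

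Between the genotypes, 7 of the 10 genes had both S1KO values under both WT values, TLR4 was higher in both, and TLR5 and TLR7 overlapped. Over all tested genes 25.8% lay lower in both S1KO libraries and 26% lay higher. With edgeR's quasi-likelihood test none of the 10 passed the threshold (adjusted p under 0.05), where 0.936% of all tested genes did, 0.15% as lower and 0.787% as higher. At an unadjusted p under 0.05 there were 5 (MYD88, TLR2, TLR6 and TLR8 lower, TLR4 higher), against 19.5% of all tested genes, with 9.21% lower. DESeq2 called MYD88 and TLR2 lower, where it called 3.28% of all tested genes lower and 4.24% higher. limma on log2(TPM + 1) called 6 lower (TLR1, TLR2, TLR6, TLR8, CD14 and MYD88), a scale on which 17.9% of all genes were called lower and 0.865% higher and the median gene moved to -0.78, and on TPM rescaled without mitochondrial genes it called 0. The median log2 fold change of the 10 was -0.50, beside -0.016 over all tested genes, and 8 of 10 were negative beside 51.3% of all tested genes. In bulk RNA fewer cells of a type and less RNA per cell cannot be told apart.

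The receptors of bacterial lipopeptides come first. TLR2, the shared partner, stood at 185 CPM in WT 1 and 277 in WT 2, and at 88.1 in S1KO 1 and 111 in S1KO 2. The groups did not overlap, with a 2.32-fold difference of the means (log2 fold change -1.21, SE 0.25, 95% interval -1.81 to -0.62, edgeR adjusted p = 0.0858). TLR2 missed the threshold in edgeR and passed it in DESeq2 (-1.22, adjusted p = 0.000201). Its 3 main coding transcripts were each lower in both S1KO libraries. TLR2-202 showed the widest gap, at 74.4 and 117 CPM in WT against 17.0 and 36.9 in S1KO, and its share of TLR2 counts was 40.3% and 42.2% in WT against 19.3% and 33.3% in S1KO.

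TLR1, which pairs with TLR2 for triacylated lipopeptides, stood at 22.7 and 28.3 CPM in WT against 19.7 and 15.6 in S1KO. The groups did not overlap, and the log2 fold change was -0.53 (SE 0.22, edgeR adjusted p = 0.263). TLR6, the partner for diacylated lipopeptides, stood at 27.7 and 41.5 CPM in WT against 22.1 and 21.5 in S1KO. Here too both S1KO libraries were the lower ones (-0.67, SE 0.24, adjusted p = 0.207), and WT 2 was well above WT 1. The fold changes of both were nearer to 0 than that of TLR2, a difference that was not tested. Within a library the log2 ratio of TLR6 to TLR2 in TPM was -3.63 and -3.32 for WT against -2.66 and -3.16 for S1KO, and that of TLR1 to TLR2 was -1.63 and -2.08 against -0.80 and -1.56. Both ratios were higher in both S1KO libraries, by 0.57 and 0.68, with pooled SDs of 0.29 and 0.44 and no test. The ratio of TLR1 to TLR6, which depends on the stretches printed above, overlapped between the genotypes.

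TLR4, the lipopolysaccharide receptor, had values on the other side. It stood at 28.0 and 29.5 CPM in WT against 47.8 and 38.1 in S1KO, so both S1KO libraries were the higher ones (log2 fold change 0.58, SE 0.19, 95% interval 0.13 to 1.03, edgeR adjusted p = 0.178). The counts of TLR4 were divided over several coding transcripts. The long transcript TLR4-201 (12677 nt) overlapped between the genotypes, at 25.8 and 26.7 CPM in WT against 33.4 and 22.6 in S1KO. The shorter coding transcript TLR4-202 (4048 nt) stood at 2.04 and 1.28 CPM in WT against 14.5 and 6.19 in S1KO. TLR4-202 made up 7.30% and 4.36% of TLR4 counts in WT (95% Wilson intervals 5.67 to 9.33 and 3.20 to 5.85, counting error only) and 30.3% and 16.3% in S1KO (27.0 to 33.8 and 13.9 to 19.0). TLR4-205, another long coding transcript (12853 nt), was at 0 and 1.46 CPM in WT against 0 in S1KO 1 and 7.14 in S1KO 2, where it held more TLR4 counts (18.7%) than TLR4-202. The S1KO libraries therefore differed in the transcripts that held the counts beyond TLR4-201. With an offset for effective length the fold change of TLR4 was 1.09 (adjusted p = 0.0839), and on log2(TPM + 1) it was 0.07. TLR4 also overlaps AL160272.2 on the same strand, to which 46.9 to 138.7 estimated counts per library were assigned, against 710.2 to 923.1 for TLR4.

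CD14, the lipopolysaccharide-binding co-receptor of TLR4, stood at 39.5 and 53.4 CPM in WT against 37.0 and 30.5 in S1KO. The S1KO libraries were lower, S1KO 1 only slightly below WT 1 (log2 fold change -0.46, SE 0.22, edgeR adjusted p = 0.302). The ratio of co-receptor to receptor is in TPM, and so also carries the transcript lengths given above for TLR4. CD14 TPM were 13.1 and 17.0 times those of TLR4 in WT and 4.53 and 5.26 times in S1KO, a difference of -1.61 on the log2 scale with a pooled SD of 0.22 and no test. LY96, the secreted subunit that holds lipopolysaccharide on TLR4, overlapped between the genotypes at 11.5 and 7.85 against 11.9 and 9.97 CPM, and its ratio to TLR4 was lower in both S1KO libraries (-0.90 on the log2 scale).

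**Figure D2:**
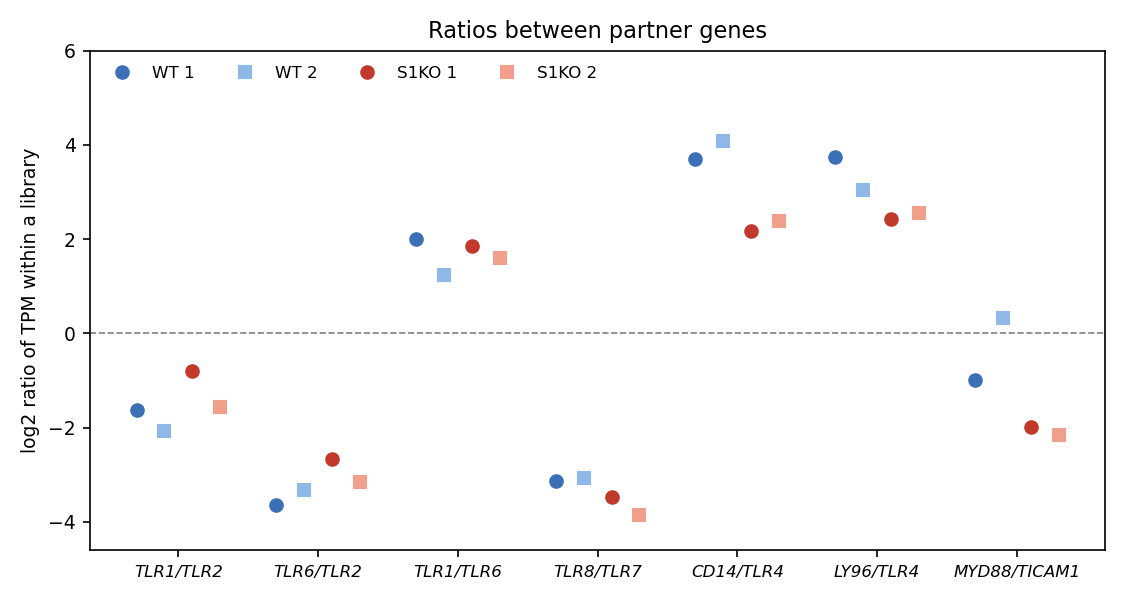
Log2 ratio of TPM between partner genes within each library, 1 point per library, with 0 marked by the dashed line. The CD14 to TLR4 ratio lies at 3.71 and 4.09 in WT and at 2.18 and 2.40 in S1KO, and the TLR1 to TLR6 ratio overlaps between the genotypes.

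The flagellin receptor TLR5 was low, at 2.82 and 4.41 CPM in WT against 5.53 and 3.67 in S1KO. The groups overlapped (log2 fold change 0.34, SE 0.41, 95% interval -0.66 to 1.34, edgeR adjusted p = 0.695), and the sign turned on log2(TPM + 1), to -0.34.

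Of the endosomal RNA sensors, TLR7, a receptor of single-stranded RNA, was the most abundant, at 57.8 and 77.1 CPM in WT against 47.0 and 58.2 in S1KO. S1KO 2 lay just above WT 1, so the groups overlapped (-0.36, SE 0.21, 95% interval -0.87 to 0.15, edgeR adjusted p = 0.407). TLR8, its neighbour on chromosome X and also a sensor of single-stranded RNA, stood at 5.93 and 8.59 CPM in WT against 3.91 and 3.71 in S1KO. Both S1KO libraries were lower (-0.93, SE 0.34, 95% interval -1.74 to -0.12, adjusted p = 0.212). The log2 ratio of TLR8 to TLR7 was -3.12 and -3.08 for WT against -3.47 and -3.85 for S1KO, lower in both S1KO libraries by 0.56 in the means (pooled SD 0.19, no test). The antisense gene TLR8-AS1 overlaps TLR8, and no source used here says whether reads keep their strand, so RNA from the opposite strand cannot be told apart.

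TLR3, which senses double-stranded RNA, rested on few estimated counts, 57.7 and 49.2 for WT against 20.4 and 27.1 for S1KO. Its CPM were 2.07 and 1.56 against 1.35 and 1.27, and the interval of the log2 fold change ran from -1.61 to 0.66 (-0.47, SE 0.47, edgeR adjusted p = 0.625). With 2 libraries per genotype and these counts, any difference within that interval remains possible. The retained-intron transcript TLR3-204 held 40.1% and 32.0% of these counts for WT against 79.9% and 60.8% for S1KO, higher in both S1KO libraries, with 95% Wilson intervals as wide as 28.1 to 52.5 and 40.7 to 75.5. Summed over coding transcripts alone, TLR3 was at -1.51 (SE 0.68, edgeR adjusted p = 0.334).

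MYD88, the shared adaptor, differed most among the 10. It stood at 16.2 CPM in WT 1 and 30.6 in WT 2, and at 7.14 in S1KO 1 and 4.56 in S1KO 2. The groups did not overlap and the WT mean was 4.01-fold the S1KO mean, while the WT libraries also differed from each other (95% interval of the log2 fold change -2.94 to -1.07, SE 0.39, edgeR adjusted p = 0.0798). MYD88 passed in DESeq2 (-2.01, adjusted p = 9.25e-05), and ran from -2.40 to -1.48 when 1 library was left out. The adaptor of the other branch, TICAM1, overlapped between the genotypes at 28.8 and 23.5 against 24.0 and 20.1 CPM, and the log2 ratio of MYD88 to TICAM1 in TPM was -0.98 and 0.32 for WT against -1.98 and -2.15 for S1KO, with no test.

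The counts behind MYD88 were mostly not assigned to coding transcripts. Retained-intron transcripts held 95.1% of MYD88 counts in WT 1 (95% Wilson interval 92.8 to 96.8), 81.7% in WT 2 (79.1 to 84.0), against 76.3% for S1KO 1 (67.5 to 83.5) and 98.0% for S1KO 2 (92.8 to 99.4). These shares overlapped between the genotypes. Over nuclear protein-coding genes together the same class held 10.7%, 12.3%, 7.64% and 10.8%. MYD88-210, which keeps both introns printed above, stood at 11.7 and 15.4 CPM in WT against 4.42 and 3.24 in S1KO, and MYD88-202 at 3.69 and 9.41 against 1.02 and 1.10. Both were lower in both S1KO libraries. Coding transcripts held 16.0 and 163.6 estimated counts for WT against 25.1 and 0 for S1KO. For the last, the upper Wilson limit of 3.81% of MYD88 counts covers counting error only. It leaves out the uncertainty of dividing reads between transcripts that share most of their words, so the coding share can be higher. Summed over coding transcripts alone, MYD88 was at -1.89 with an SE of 1.65 (edgeR adjusted p = 0.599), so the difference printed above is one of retained-intron transcripts as assigned, and a difference in coding mRNA was not detectable.

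**Figure D3:**
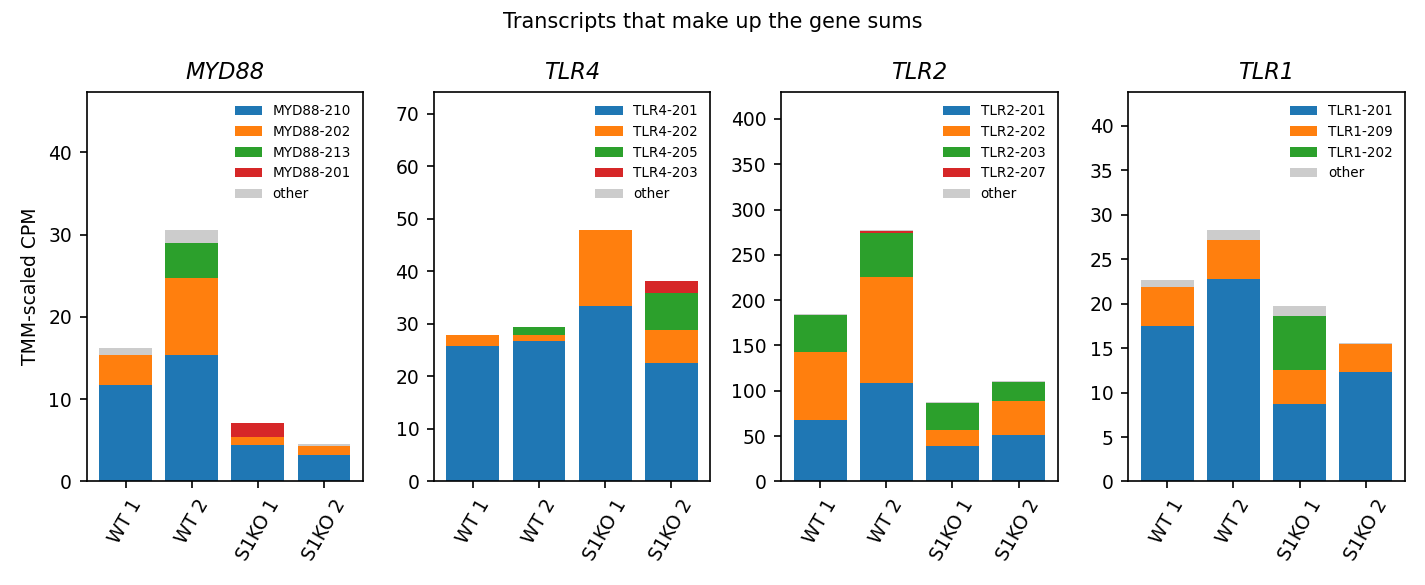
TMM-scaled CPM of the single transcripts that make up the gene sums, stacked for each library, with all further transcripts in grey. MYD88-210 and MYD88-202 make up most of MYD88, TLR4-202 is larger in both S1KO libraries (14.5 and 6.19 CPM) than in WT (2.04 and 1.28), and the main TLR2 transcripts are each lower in S1KO.

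WT 2 had the highest value of the 4 libraries for 7 of the 10 genes, beside 27.1% of all tested genes. TLR2 was 185 CPM in WT 1 and 277 in WT 2, and MYD88 16.2 and 30.6, so the size of the differences depends on which WT library is used. Without WT 1 edgeR called 5 of the 10 lower (TLR2, TLR6, TLR8, CD14 and MYD88), where it called 6.53% of all tested genes lower. Without WT 2 it called MYD88 and TLR2 lower, where it called 7.32% of all tested genes lower. Without S1KO 1 or without S1KO 2 it called 0 of the 10, and 0 of all tested genes (1171 and 1636 at an unadjusted p under 0.05). TLR2 was at -1.48 without WT 1 and -0.89 without WT 2, and MYD88 at -2.40 and -1.48. TLR4 kept a positive fold change in each of these, from 0.40 to 0.72.

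**Figure D4:**
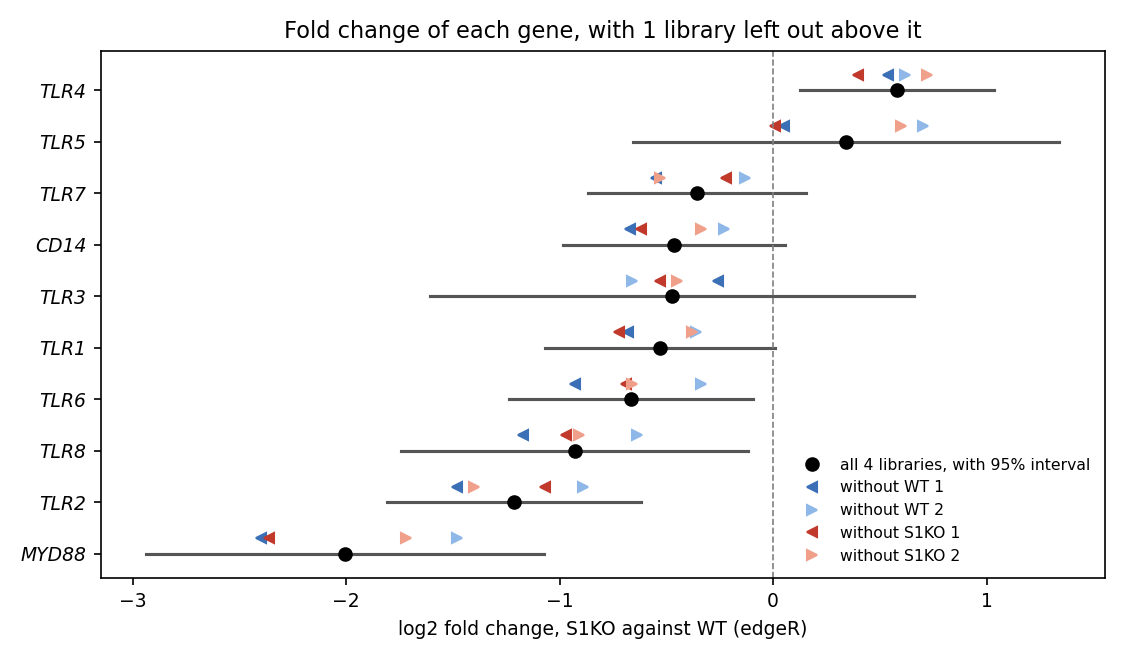
Log2 fold change of S1KO against WT for each gene from edgeR (black points, with 95% intervals) and, above each, the values with 1 library left out (coloured triangles). MYD88 (interval -2.94 to -1.07) and TLR2 at -1.21 lie farthest below 0 and TLR4 at 0.58 farthest above; intervals of TLR1, TLR3, TLR5, TLR7 and CD14 include 0.

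Markers of cell types also differed between the genotypes in part. Of 12 microglia and macrophage markers 1 fell, P2RY12 (-1.45, edgeR adjusted p = 0.0483), 10 were negative, the median was -0.74, and their summed TPM without mitochondrial genes was 11398 and 12358 for WT against 6857 and 8558 for S1KO. Of 8 monocyte and neutrophil markers 6 could be tested, 4 negative and 2 positive, with a median of -0.5. In edgeR 1 of them rose, FCN1 (2.80, adjusted p = 0.0405), from 1.47 and 1.09 CPM to 9.91 and 7.90. The summed TPM of this list on the same scale was 1016 and 792 for WT against 659 and 753 for S1KO. Over the 4 libraries CSF3R stood at 144 to 256 CPM, S100A9 at 43.2 to 80.6 and S100A8 at 26.45 to 31.6. S100A12 was low, at 1.22 to 2.62 CPM. MPO and ELANE, genes of neutrophil precursors, had 0 counts in all libraries. MS4A1 and CD79B, which define B cells, also had 0 counts. The 4 pluripotency markers tested were low and each higher in both S1KO libraries (median 1.16), with 2 at an unadjusted p under 0.05 and 0 past the threshold in edgeR. Their list summed to 6.88 and 7.95 TPM without mitochondrial genes for WT against 17.3 and 19.4 for S1KO. None of the 3 dendritic cell markers tested passed in edgeR. CD1C was abundant, at 122 and 98.6 CPM in WT against 117 and 111 in S1KO. The other tested markers were lower, CLEC9A at 0 to 1.82 CPM and LAMP3 at 2.61 to 17.5 over the libraries. The part of any of these in the fold changes of the 10 genes was not tested.

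The rest of the Toll-like receptor pathway, 81 genes in 8 lists of which 78 could be tested, held no gene that passed in edgeR in either direction. At an unadjusted p under 0.05 there were 19 (24.4%, beside 19.5% of all tested genes). DESeq2 called 4 lower and 2 higher, beside 3.28% and 4.24% of all tested genes. The median log2 fold change was -0.11, with 44 negative and 34 positive. Both S1KO libraries were lower for 22 (28.2%, beside 25.8% of all tested genes) and higher for 12 (15.4%, beside 26%). These shares are near those of all genes, apart from the last, which is smaller and was not tested.

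Among other receptors and accessory proteins (7 tested, median -0.34), TLR10, the receptor next to TLR1 and TLR6, overlapped between the genotypes at 115 and 92.6 against 89.1 and 101 CPM. LY86 (MD-1), which pairs with the TLR4-like receptor CD180, stood at 99.2 and 70.9 CPM in WT against 48.7 and 63.3 in S1KO (-0.60, edgeR adjusted p = 0.225). SIGIRR, an inhibitory receptor of the family, overlapped (-0.37, adjusted p = 0.531). Of the proteins that fold Toll-like receptors or carry them to their place (7 tested, median -0.44, and -0.10 without WT 1), TMED7, which carries TLR4 out of the endoplasmic reticulum, stood at 33.4 and 29.7 CPM in WT against 16.2 and 15.4 in S1KO (1.99-fold, SE 0.19 on the log2 scale, adjusted p = 0.075, and 0.00128 in DESeq2). UNC93B1, the chaperone that brings TLR3, TLR7 and TLR8 to endosomes, stood at 105 and 154 against 74.6 and 96.6 CPM (-0.60, adjusted p = 0.24, and -0.30 without WT 2). Both genes were lower in both S1KO libraries and neither passed in edgeR.

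The adaptors beside MYD88 (5 tested, median 0.19) showed no separation: in none of them did both S1KO libraries lie on 1 side of both WT libraries. PIK3AP1 (BCAP), which links the receptors to PI3-kinase, was at 0.36 (edgeR adjusted p = 0.529). In the IRAK and TRAF chain (18 tested, median -0.05) TRAF3, a ubiquitin ligase of the interferon branch, was at 0.57 (adjusted p = 0.179) and PELI1, a ubiquitin ligase acting on IRAK proteins, at -0.53 (adjusted p = 0.218). Of the NF-kB and IRF factors (9 tested, median 0.08) NFKB1, the p105 and p50 subunit gene, was low, with means of 3.68 CPM in WT against 10.1 in S1KO (1.46, SE 0.34, adjusted p = 0.101), and RELB was at 0.54 (adjusted p = 0.243). Both lay higher in both S1KO libraries. CXorf21 (TASL), which joins SLC15A4 to IRF5 downstream of the endosomal receptors, stood at 14.8 and 18.2 CPM in WT against 34.3 and 33.5 in S1KO (1.04, SE 0.20, adjusted p = 0.0763), while the endosomal transporter SLC15A3 was at -0.77 (adjusted p = 0.211). On log2(TPM + 1), TRAF3 was at -0.12, RELB at -0.59 and PIK3AP1 at -0.52, so their signs turned on that scale, while NFKB1 was at 0.04 and CXorf21 at 0.07.

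The median of the genes that these receptors switch on depended on 1 WT library. Of 13 inflammatory target genes 11 could be tested, 9 were negative, and the median was -1.50. Both S1KO libraries were lower for 5 of the 11 and higher for 1, beside 25.8% and 26% of all tested genes. WT 2 had the highest value for 9 of the 11, and without WT 2 the median was -0.08, where that of the 8 receptors TLR1 to TLR8 was -0.35. TNF, a cytokine gene with copies on alternate contigs, stood at 31.9 and 104 CPM in WT against 21.0 and 24.3 in S1KO (-1.59, SE 0.51, edgeR adjusted p = 0.176). IL1B stood at 207 and 419 against 118 and 125 (-1.36, SE 0.33, adjusted p = 0.107). Among the negative regulators (14 tested, median 0.05) TNFAIP3 (A20), a ubiquitin-editing brake on NF-kB, was at -0.78 (adjusted p = 0.148) and the phosphatase gene DUSP1 at -1.40 (adjusted p = 0.227), with 187 CPM in WT 1 and 661 in WT 2 against 150 and 171 in S1KO. Without WT 2, TNF was at -0.49, IL1B at -0.76 and DUSP1 at -0.21.

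**Figure D5:**
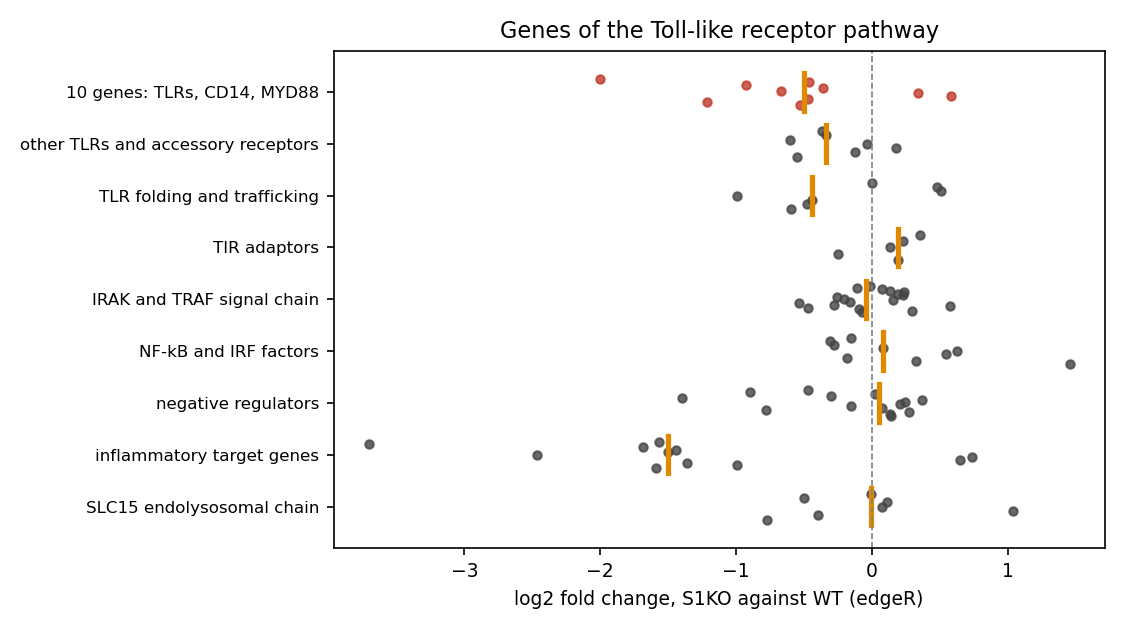
Log2 fold change of S1KO against WT (edgeR) for each tested gene of the Toll-like receptor pathway, 1 point per gene, grouped by list, with the 10 receptor, co-receptor and adaptor genes as 1 group. The inflammatory targets have the lowest list median (-1.50), and most adaptors and signal chain genes lie near 0 (medians 0.19 and -0.05).

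The genes whose profile over the 4 libraries was nearest to that of TLR2, among 8618 protein-coding genes with a mean of at least 5 TPM, included HLA-B (distance 0.086 on the centred log2 CPM scale) and TREM2 (0.151), where the median distance was 1.30. HLA-B has copies on alternate contigs, so its value is uncertain. TREM2 stood at 234 and 304 CPM in WT against 101 and 132 in S1KO. For MYD88 the nearest were MT2A (0.329), SLCO4A1 (0.50) and CPVL (0.615), with a median distance of 2.08.

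Promoter letters were searched as a description, whichever side the values of a gene lay on. RefSeq windows of 300 bases around the start (GRCh38.p14) were found for 8 of the 10, without TLR1 and TLR7. In these windows 4 motifs were searched on both strands. GAGGAA, a core of the PU.1 site, was found in 4 of the 8 (CD14, MYD88, TLR4 and TLR6) and in 27.9% of all 35116 windows. An interferon response element, GAAA then NN then GAAA, was found in MYD88 and TLR3 and in 3.60% of all windows. TGANTCA, the AP-1 site, was found in CD14 and in 7.70%, and an NF-kB site, GGG then NN then TTTCC, in none of the 8 and in 1.90%. The MYD88, TLR3 and CD14 matches are printed with the motif in capitals, in the direction of each gene (chr3:38138590-38138619 plus strand, chr4:186069142-186069171 plus strand and chr5:140633382-140633408 minus strand).
MYD88: gcgcttctcgGAAAGCGAAAgccggcgggg
TLR3: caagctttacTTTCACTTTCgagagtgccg
CD14: ctggggcgccTGAGTCAtcaggacact
A match is a description of letters and not of binding.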

How the data were processed

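Poly-A RNA of 4 libraries was sequenced as read pairs, and the submitters' processing notes name kallisto and hg38, with a version and transcript set not given in the sources used here. Each deposited file holds 1 library and gives the estimated count and the TPM of 188753 transcripts, per the file headers. Transcripts were summed to genes with GENCODE 29 (169797 matched by identifier, 15521 by symbol); 3435 without a name, with 0.323% to 0.643% of counts, were left out. Gene sums of estimated counts were rounded, filtered with filterByExpr, scaled by TMM (factors 1.313 and 1.217 for WT, 0.654 and 0.957 for S1KO) and tested for genotype alone with edgeR 4.0.16 (glmQLFTest, two-sided, R 4.3.3). P-values were adjusted by Benjamini-Hochberg over 15378 genes, with a threshold of 0.05. The script was tested on simulated data. Intervals are at 95%. An exact permutation test of 2 against 2 cannot go below p = 0.333 and was not run.

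The 10 genes, the gene lists and the tests were chosen with earlier results of these data known. Genes named are the 10, INPP5D, the called members or otherwise the 2 of smallest p of each pathway list, the partners in ratios, and the 3 protein-coding genes of nearest profile to TLR2 and MYD88; a few marker genes are named besides, and 1 gene that this rule names is not reported here. Alternatives were DESeq2 1.42.0 (test and size factors), other filters, a replicate block, each library left out, limma 3.58.1 on log2(TPM + 1) and log2(TPM + 0.1), effective length, mitochondrial genes left out and protein-coding transcripts only.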

Additional observations from a re-analysis of the deposited data

How the results depend on the processing

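Of all tested genes 144 were called by edgeR. The count was 1157 with DESeq2, 1362 with no filter, 223 with a stricter filter, 2893 and 2638 with limma on log2(TPM + 1) and log2(TPM + 0.1), 21 with protein-coding transcripts only, and 0 to 2148 with 1 library left out. Of the 10 genes 0 were called by edgeR, 2 with DESeq2, 2 with no filter, 6 and 5 with limma on log2(TPM + 1) and log2(TPM + 0.1), and 0 to 5 with 1 library left out. INPP5D ran from -2.31 to -1.99 with 1 library left out. The replicate numbers are not tied to a shared batch or clone, and the deviations of WT 1 and S1KO 1 from their group means correlated at 0.023 across genes. With the replicate number as a block 0 genes were called, INPP5D was at -2.16 (edgeR adjusted p = 0.0504), MYD88 at -1.96 (adjusted p = 0.132) and TLR2 at -1.20 (adjusted p = 0.0791). Signs turned for TLR5 (-0.34 and -0.45), PIK3AP1 (-0.52 and -0.54), TRAF3 (-0.12 and -0.14), RELB (-0.59 and -0.62) and LY96 (-0.79 and -0.82) with limma on log2(TPM + 1) and log2(TPM + 0.1), and with 1 library left out for LY96 (-0.07 to 0.48), SIGIRR (-0.65 to 0.00) and TLR10 (-0.27 to 0.04). With limma on log2(TPM + 1) rescaled without mitochondrial genes, TLR5 was at 0.29, PIK3AP1 at 0.35, TRAF3 at 0.72 and RELB at 0.27. The signs of these genes were then those of edgeR. The cause of the turns was not tested. The other 9 of the 10 genes had the same sign in every alternative run. MYD88 ran from -2.87 to -1.48 and TLR2 from -2.14 to -0.89, each past the threshold in 6 of 15 alternatives. TLR4 ran from 0.07 to 1.09 and passed in 0 of 15. TLR3 could not be tested under the stricter filter. Rescaling TPM without mitochondrial genes moved TLR2 to 150 TPM in WT and 63.3 in S1KO. Counts of 20.4 to 57.7 limit TLR3, and 58.0 to 269.0 limit TLR8.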
